A study of Mus musculus with 9 samples.

Results

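The 10 genes described here are products by which myoepithelial cells are usually recognised: the contractile genes Acta2, Myh11, Cnn1, Mylk, Tagln and Actg2, the basal epithelial genes Krt5, Krt14 and Trp63, and the oxytocin receptor gene Oxtr. They were chosen by name and matched to the Ensembl identifiers of the deposited count table through the GENCODE M21 annotation, and all 10 were found among its 54232 genes. RNA of the lacrimal gland, the source of the aqueous tear fluid, was measured by RNA sequencing in 9 libraries of C57BL/6J female mice. There were 3 libraries at 2 months of age (the titles of this group read 8 weeks), 3 at 12 months and 3 at 24 months. All were of the same inbred strain, fed without restriction under a 12-hour light cycle, with no allele or drug given in the labels. Whether each library came from its own mouse is not said in the labels, and p-values therefore measure only how far these samples spread, a spread that may be technical.

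Myoepithelial cells are flat, branched epithelial cells that lie between the secretory acini and the basement membrane and squeeze the acini when they contract. Their contractile machinery is that of smooth muscle: actin filaments of smooth muscle type, smooth muscle myosin and the kinase that switches it on, so the same transcripts also come from the walls of blood vessels. What sets them apart from vascular cells is their epithelial origin, seen in the basal keratins 5 and 14 and in the transcription factor p63, and in several glands contraction is started by oxytocin or by acetylcholine. In RNA of a whole gland, fewer cells of a type and less RNA per cell cannot be told apart.

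The libraries held 40516863 to 42573877 counts. As a check of the labelled tissue, 7 lacrimal acinar genes summed to 259200 to 402000 counts-per-million units (CPM). Libraries 1 and 3 at 12 months held skeletal muscle transcripts, with 1523 and 3058 counts over 13 genes against 37 to 133 in the other 7 libraries, and are called muscle-rich. Library 3 at 2 months, library 2 at 12 months and library 2 at 24 months held the most salivary gland transcripts, 10988 to 30356 counts over 9 genes, against 23 to 2478 in the other 6, and are called salivary-rich. The changes of the 9 genes of the 10 that could be tested are given below with and without these libraries, and the calls of other gene lists are counted without them.

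For the promoters, 6 of the 10 genes had a window in the RefSeq table of the GRCm38.p6 assembly, from 250 bases before to 50 bases after an annotated start: Acta2, Cnn1, Mylk, Krt5, Krt14 and Oxtr. Myh11, Tagln, Actg2 and Trp63 had none. Smooth muscle genes are classically switched on by serum response factor, which binds the CArG box, a CC and a GG with 6 A or T bases between them. The windows of Acta2 and Cnn1, which moved together with age, and of the keratin gene Krt5 are shown 5′ to 3′ on the coding strand, with CArG-like matches in capitals. They lie at chr19:34255324-34255623 on the minus strand, chr9:22099003-22099302 on the plus strand and chr15:101712856-101713155 on the minus strand.
Acta2: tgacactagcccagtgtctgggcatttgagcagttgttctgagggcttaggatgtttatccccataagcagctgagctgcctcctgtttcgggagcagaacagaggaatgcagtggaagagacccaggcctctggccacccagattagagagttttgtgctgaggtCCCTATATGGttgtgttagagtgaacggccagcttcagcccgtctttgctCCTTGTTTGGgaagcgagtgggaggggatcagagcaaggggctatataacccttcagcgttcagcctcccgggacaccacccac
Cnn1: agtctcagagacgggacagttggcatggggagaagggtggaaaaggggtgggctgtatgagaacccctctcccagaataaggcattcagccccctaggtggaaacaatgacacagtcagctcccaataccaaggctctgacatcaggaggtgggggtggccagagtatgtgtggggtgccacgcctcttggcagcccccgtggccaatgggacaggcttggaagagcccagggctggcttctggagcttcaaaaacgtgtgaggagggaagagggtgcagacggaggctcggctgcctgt
Krt5: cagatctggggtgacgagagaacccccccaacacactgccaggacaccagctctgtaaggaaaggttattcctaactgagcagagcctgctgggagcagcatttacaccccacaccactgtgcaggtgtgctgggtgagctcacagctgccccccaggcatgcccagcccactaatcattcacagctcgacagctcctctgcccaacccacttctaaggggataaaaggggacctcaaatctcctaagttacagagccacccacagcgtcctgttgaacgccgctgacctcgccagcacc
A strict CArG box was found on either strand in none of the 6 windows, and in 1.63% of all 32851 windows of the table. A CArG-like match with 1 G or C among the 6 middle bases, searched after the strict search gave none, was present in 8.5% of all windows. Among the 6 it was found in Acta2 alone, at -84 to -75 and at -34 to -25 from the annotated start. The MCAT motif CATTCC, bound by TEAD factors, occurred in Acta2 at -146 to -141, in Mylk at -158 to -153 and in Krt14 at -66 to -61, and in 14.7% of all windows. The GC box GGGCGG occurred in Oxtr at -49 to -44 and in 35.7% of all windows, and TATAAA in none of the 6 and in 13.6%. A match describes letters in a window and not a bound site. Gene positions below are those of GENCODE M21 on GRCm38, and the start a window is built on can lie inside the gene. The whole windows of Mylk (chr16:34784700-34784999) and Krt14 (chr11:100205981-100206280) lay inside these genes. Their MCAT matches are therefore not upstream of the gene as placed below. The starts used for Acta2, Cnn1 and Oxtr also lay inside their genes. All matches given above for Acta2 and Oxtr lay inside these genes too, and so not upstream of them as placed below.

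Between genes, levels were compared per length, in transcripts-per-million units (TPM) from counts and exon length. Acta2, the gene of alpha smooth muscle actin, was the most abundant of the 10, with a mean of 30.1 TPM over the 9 libraries (SD 6.56), and 471 genes of the table had a higher mean. Krt14 followed at 9.96 TPM (SD 2.55, n = 9) and Krt5 at 8.37 TPM (SD 2.99, n = 9), with overlapping ranges of 7.24 to 16.1 and 5.65 to 15.6 TPM. Cnn1, Myh11 and Mylk lay close together at 4.07, 3.33 and 3.15 TPM, and their ranges overlapped too. With the longest transcript as length, Mylk had a mean of 4.09 TPM. The ranges of Acta2 and Krt14 did not overlap, nor did those of Krt5 and Cnn1.

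**Figure D1:**
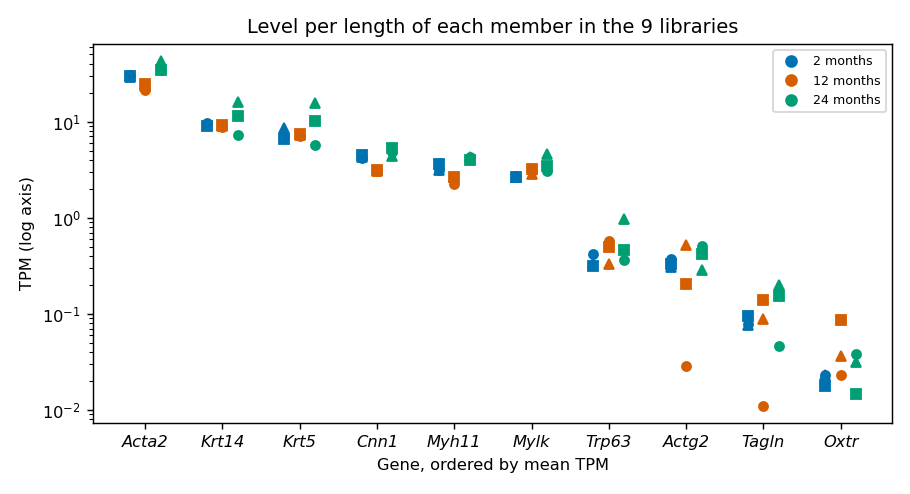
Level per length of each gene in the 9 libraries, in TPM on a log axis, with genes ordered by mean TPM from left to right. Colours are ages and symbols are replicate numbers. Acta2 lies above the other 9 genes in every library, and Trp63, Actg2, Tagln and Oxtr lie below 1 TPM in every library.

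The low end of the order held 4 genes that stayed under 1 TPM in every library. Trp63, the gene of the basal transcription factor p63, had a mean of 0.477 TPM, Actg2, the gene of enteric smooth muscle actin, 0.331 TPM, Tagln, the gene of the actin-binding protein transgelin, 0.0990 TPM, and Oxtr 0.0327 TPM. Trp63 and Actg2 overlapped in their ranges, 0.316 to 0.970 and 0.0284 to 0.524 TPM. Krt5 and Krt14 exceeded Trp63 in every library, and Oxtr was the lowest of the 10 by its mean. The range of Tagln, 0.0111 to 0.201 TPM, overlapped with those of Actg2 above it and Oxtr below it.

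Among the contractile genes, 3 of 6 fell from 2 to 12 months (Acta2, Myh11 and Cnn1) and 3 of 6 rose from 12 to 24 months (Acta2, Myh11 and Cnn1). Genes called lower at 12 than at 2 months made up 2.52% of the 14944 genes tested, and genes called higher 5.41%. Genes called higher at 24 than at 12 months made up 2.79%, and genes called lower 1.60%. A gene was called where its p from edgeR's quasi-likelihood test, adjusted by the Benjamini-Hochberg method over all 14944 genes, was under 0.05. The comparisons share the 12-month libraries, so low values there enter both. DESeq2 and limma voom called the same number of contractile genes in each direction.

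Acta2 (chr19:34241090-34255590) encodes the actin of smooth muscle thin filaments. Its level, in CPM after TMM scaling, was 74.8, 91.6 and 82.7 in libraries 1, 2 and 3 at 2 months, 48.2, 48.1 and 52.7 at 12 months, then 86.6, 74.5 and 75.1 at 24 months. Every 12-month library lay below every library of the other ages, while the 2-month and 24-month libraries overlapped. At 12 months the fitted level was 59.8% of that at 2 months (log2 fold change -0.74, SE 0.11, 95% interval -0.97 to -0.51, edgeR adjusted p = 0.0021). From 12 to 24 months it rose by 0.66 on the log2 scale (interval 0.44 to 0.89, adjusted p = 0.00454, edgeR). Without the salivary-rich libraries the first change was -0.73 with adjusted p = 0.0755 and the second 0.69 with adjusted p = 0.0896, and without the muscle-rich libraries they were -0.79 with 0.024 and 0.72 with 0.102 (edgeR).

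Myh11 (chr16:14194535-14291372), the heavy chain of smooth muscle myosin, is the motor of the contractile filament. Its CPM were 26.9, 38.0 and 30.7 at 2 months, 17.6, 18.0 and 20.8 at 12 months, then 36.6, 29.3 and 26.4 at 24 months. The pattern was that of Acta2, with the 12-month libraries below all others and no separation of the youngest from the oldest. The log2 fold change was -0.76 from 2 to 12 months (SE 0.14, adjusted p = 0.00841) and 0.71 from 12 to 24 months (SE 0.14, adjusted p = 0.017, edgeR). Without the salivary-rich libraries these were -0.76 with adjusted p = 0.151 and 0.72 with 0.177, and without the muscle-rich ones -0.83 with 0.0667 and 0.78 with 0.189 (edgeR). Leaving out library 1 or library 2 at 12 months also ended the second call, with adjusted p = 0.0746 and 0.0637 (edgeR).

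Cnn1 (chr9:22099216-22109630) encodes calponin, an actin-binding protein that restrains the myosin motor. Its CPM were 12.9, 16.9 and 15.0 at 2 months, 8.52, 7.58 and 8.54 at 12 months, then 15.1, 14.2 and 9.75 at 24 months. Library 3 at 24 months, the lowest of its age, still lay above the 12-month libraries. The log2 fold change was -0.86 from 2 to 12 months (SE 0.16, adjusted p = 0.00774) and 0.66 from 12 to 24 months (SE 0.16, adjusted p = 0.0386, edgeR). Without the salivary-rich libraries these were -0.81 with adjusted p = 0.165 and 0.55 with 0.374, and without the muscle-rich ones -0.98 with 0.0557 and 0.79 with 0.257 (edgeR). The rise was called in 10 of 20 alternative fits, with adjusted p up to 0.374, and was lost with any 1 of 6 libraries left out: library 3 at 2 months (0.0642), library 1 (0.0951), 2 (0.121) or 3 (0.0677) at 12 months, and library 1 (0.114) or 2 (0.121) at 24 months (edgeR).

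Mylk (chr16:34745210-35002420) encodes the light chain kinase that starts contraction when calcium rises. Its CPM were 34.1, 41.6 and 38.8 at 2 months, 35.2, 32.2 and 33.1 at 12 months, then 39.2, 38.5 and 42.0 at 24 months. The 12-month libraries overlapped with the 2-month ones and lay below the 24-month ones. Neither change passed the test: the log2 fold change was -0.19 from 2 to 12 months (interval -0.39 to 0.01, adjusted p = 0.25) and 0.25 from 12 to 24 months (interval 0.05 to 0.45, adjusted p = 0.154, edgeR). They were -0.15 and 0.26 without the salivary-rich libraries and -0.25 and 0.32 without the muscle-rich ones, with adjusted p from 0.431 to 0.755 (edgeR). The ratio of Acta2 to Mylk counts was 2.19, 2.20 and 2.13 at 2 months, 1.37, 1.49 and 1.60 at 12 months, then 2.21, 1.93 and 1.79 at 24 months, so the 12-month ratios lay below all others. This ratio was not tested. One count per gene does not separate the kinase's isoforms, some of which are made outside smooth muscle.

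**Figure D2:**
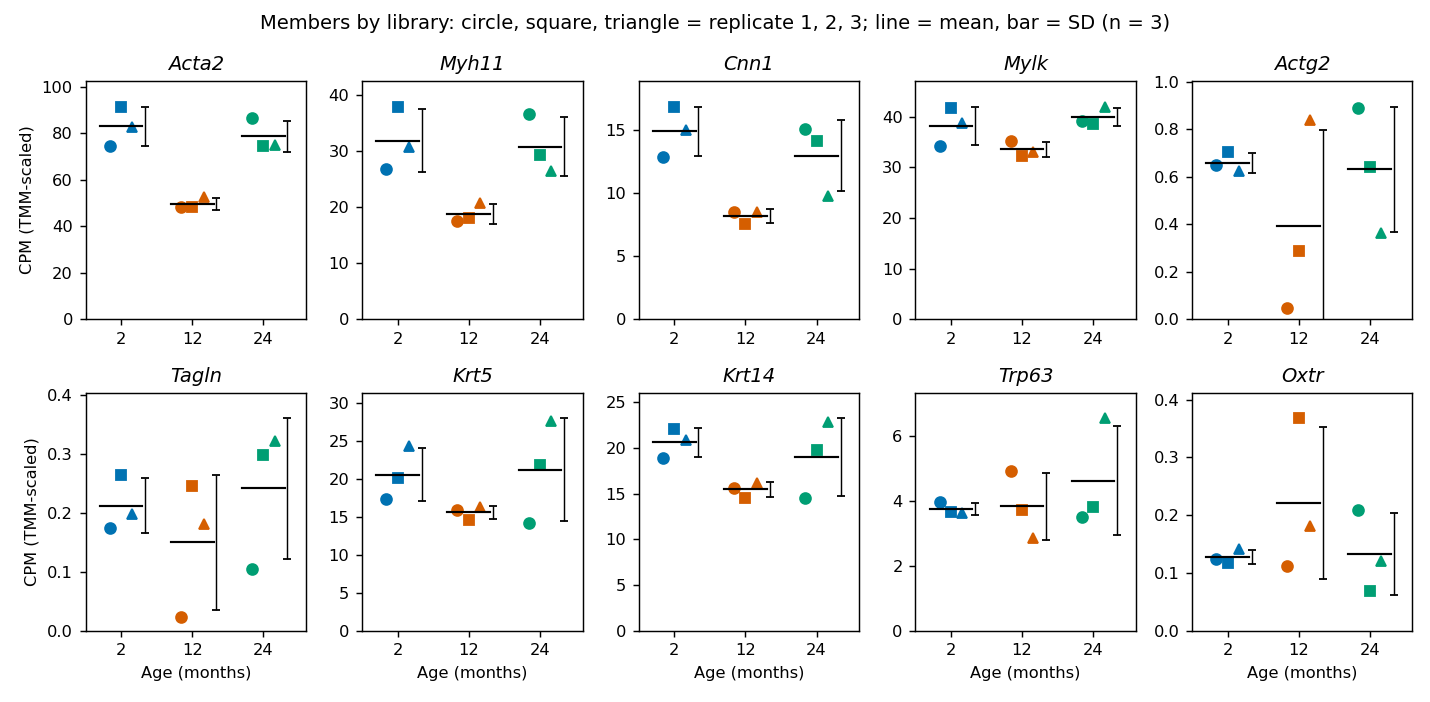
Level of each gene in each library, in CPM after TMM scaling, against age in months. Symbols are replicates 1, 2 and 3, lines are means and bars are SD (n = 3), drawn down to 0 where they would pass below it. The 12-month libraries of Acta2, Myh11 and Cnn1 lie below all libraries of the other ages, while those of Trp63, Tagln, Actg2 and Oxtr overlap with both.

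Tagln and Actg2 were measured at few counts. Tagln (chr9:45929619-45936058, minus strand) was counted 7, 9 and 7 times in the 2-month libraries, 1, 12 and 8 times in the 12-month and 4, 13 and 16 times in the 24-month libraries. These levels are far below that of Acta2, although transgelin is usually an abundant product of smooth muscle. Of its exon bases 67.9% are shared with exons on the opposite strand, of Pcsk7 and of the predicted gene Gm48529, and the strand setting of the counting is not given in the sources used here. Pcsk7 had 207 to 384 counts and Gm48529 had 6 to 33. Among protein-coding genes, the 147 that share 60% or more of their exon bases with the opposite strand had a median mean count of 0.1. The median was 17.8 in the 16628 that share none, 182.9 in the 4263 that share under 20% and 55.5 in the 868 that share from 20% to under 60%, so it did not fall steadily with sharing. The part of this sharing in the Tagln values was not tested, and its level is uncertain.

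Actg2 (chr6:83512905-83536265), which shares no exon bases, was counted 26, 24 and 22 times in the 2-month libraries, 2, 14 and 37 times in the 12-month and 34, 28 and 18 times in the 24-month libraries. The 12-month libraries held the lowest and the highest count of the 9. Its log2 fold change was -0.75 from 2 to 12 months (interval -2.27 to 0.77, adjusted p = 0.575) and 0.68 from 12 to 24 months (interval -0.83 to 2.19, adjusted p = 0.655, edgeR). For Tagln these were -0.48 (interval -2.08 to 1.13, adjusted p = 0.76) and 0.68 (interval -0.88 to 2.24, adjusted p = 0.667, edgeR). Without the muscle-rich libraries the values were -1.20 and 1.14 for Actg2 and 0.20 and 0.01 for Tagln, and without the salivary-rich ones -0.61 and 0.50 for Actg2, none of them called, while Tagln was then not tested (edgeR). At this depth the intervals of both genes hold the changes measured for Acta2 as well as no change.

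No basal epithelial gene was called in any comparison by edgeR, DESeq2 or limma voom. At an unadjusted edgeR p under 0.05, 1 of the 3 was lower at 12 than at 2 months (Krt14), none differed at 24 against 2 months, and 1 was higher at 24 than at 12 months (Krt5). By that rule 10.2% of all tested genes were lower at 12 than at 2 months, 17.1% higher and 14.5% lower at 24 than at 2 months, and 9.96% higher at 24 than at 12 months. Krt5 (chr15:101707070-101712898), the type II keratin of basal cells, had CPM of 17.3, 20.1 and 24.3 at 2 months, 15.8, 14.6 and 16.3 at 12 months, then 14.1, 21.8 and 27.6 at 24 months. The 12-month libraries lay below all 2-month libraries, but the 24-month libraries ran from the lowest to the highest value of the 9. The log2 fold change was -0.40 from 2 to 12 months (interval -0.83 to 0.03, adjusted p = 0.253) and 0.45 from 12 to 24 months (interval 0.02 to 0.87, adjusted p = 0.242, edgeR). They were -0.22 and 0.40 without the salivary-rich libraries and -0.50 and 0.55 without the muscle-rich ones, with adjusted p from 0.46 to 0.817 (edgeR). Without library 1 at 24 months the second passed, at 0.67 with adjusted p = 0.0282 (edgeR). With no filter on low counts both passed, with adjusted p = 0.0286 and 0.00817 (edgeR).

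Krt14 (chr11:100203162-100207548), the type I keratin that pairs with keratin 5, had CPM of 18.9, 22.1 and 20.9 at 2 months, 15.6, 14.6 and 16.2 at 12 months, then 14.5, 19.7 and 22.9 at 24 months. It followed Krt5 library by library at 24 months, again lowest in library 1. The log2 fold change from 2 to 12 months was -0.42 (interval -0.73 to -0.11, adjusted p = 0.0997, edgeR), with all 12-month libraries below all 2-month ones. It passed without library 1 at 24 months (adjusted p = 0.0297), in the fit of the 6 libraries compared (0.0316) and with no filter on low counts (0.0202, edgeR). From 12 to 24 months it was 0.30 (adjusted p = 0.277), and 0.46 with 0.0448 without library 1 at 24 months (edgeR). Without the salivary-rich libraries the 2 changes were -0.37 and 0.25, and without the muscle-rich ones -0.51 and 0.40, with adjusted p from 0.279 to 0.716 (edgeR).

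Trp63 (chr16:25683763-25892102) had CPM of 3.99, 3.67 and 3.65 at 2 months, 4.92, 3.74 and 2.86 at 12 months, then 3.51, 3.83 and 6.56 at 24 months. Its ages overlapped throughout, and library 3 at 24 months stood highest. The log2 fold change was 0.03 from 2 to 12 months (interval -0.54 to 0.59, adjusted p = 0.966) and 0.27 from 12 to 24 months (interval -0.28 to 0.83, adjusted p = 0.621, edgeR). They were 0.02 and 0.39 without the salivary-rich libraries and -0.02 and 0.33 without the muscle-rich ones, with adjusted p from 0.738 to 0.991 (edgeR). Both intervals hold the values measured for Krt5 and Krt14 in the same comparison.

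Oxtr (chr6:112473683-112489943), the receptor through which oxytocin triggers contraction, was counted 5, 4 and 5 times in the 2-month libraries, 5, 18 and 8 times in the 12-month and 8, 3 and 6 times in the 24-month libraries. It did not pass the filter on low counts and was not tested. Its ages overlapped, and the count of 18 came from library 2 at 12 months, which also held salivary gland transcripts; their part in it was not tested.

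Between 2 and 24 months none of the 9 tested genes was called in either direction by edgeR, DESeq2 or limma voom. None had an unadjusted edgeR p under 0.05, and in TMM-scaled CPM the ages overlapped in all 9. Among all genes 9.82% were called higher and 7.56% lower at 24 months, and in 35.1% the ages did not overlap. The log2 fold change of Acta2 was -0.08 (interval -0.31 to 0.15, adjusted p = 0.67), that of Myh11 -0.05 (interval -0.36 to 0.26) and that of Cnn1 -0.20 (interval -0.55 to 0.15, edgeR). Those of Mylk, Krt5, Krt14 and Trp63 were 0.06, 0.05, -0.11 and 0.30, with adjusted p from 0.466 to 0.901 (edgeR). Acta2, Myh11 and Cnn1 were at -0.07, -0.04 and -0.20 without the muscle-rich libraries and at -0.04, -0.04 and -0.26 without the salivary-rich ones, and none of the tested genes was called in either fit (adjusted p 0.448 to 0.961, edgeR). These signs depend on the scaling. With library totals alone the median of all genes shifted to 0.31 in 12 against 2 and in 24 against 2 months, from 0.01 in both, and the values of Acta2, Myh11 and Cnn1 at 24 against 2 months became 0.22, 0.25 and 0.09. Mylk then passed at 0.38 with adjusted p = 0.0481 (edgeR). In TPM, which follow library totals too, Acta2 was 29.3 to 30.3 at 2 months and 34.6 to 42.5 at 24 months, with no overlap. Myh11, at 3.14 to 3.61 and 3.94 to 4.31 TPM, and Mylk, at 2.67 to 2.70 and 3.06 to 4.62 TPM, did not overlap either. The ages of the other tested genes overlapped in TPM. The share of all genes without overlap in TPM was not counted.

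**Figure D3:**
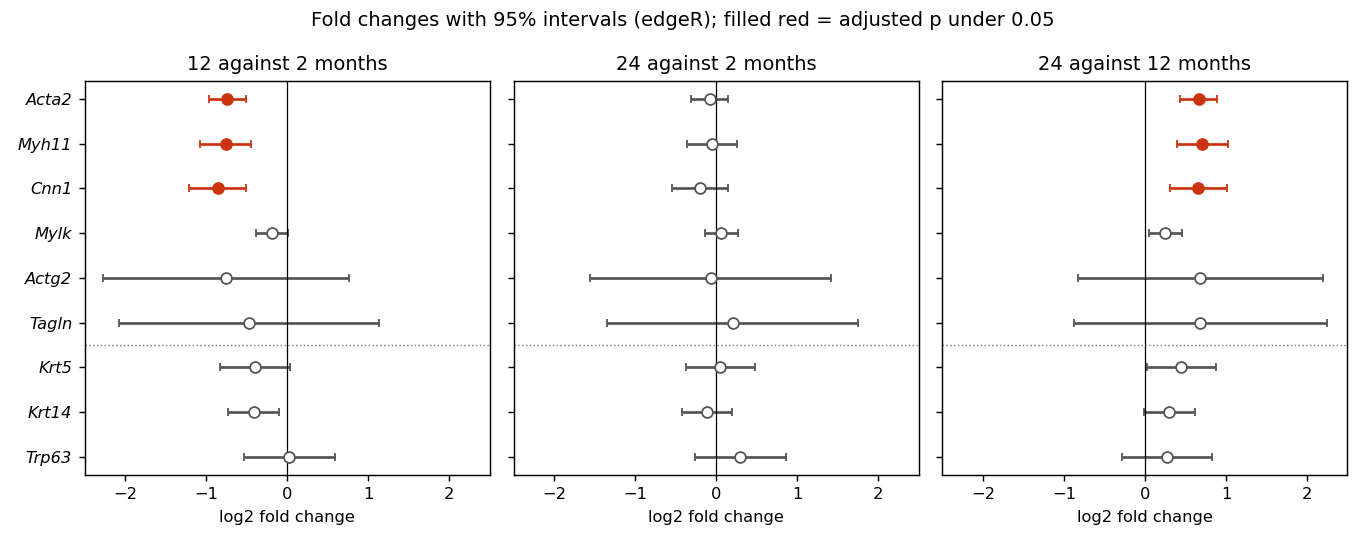
Log2 fold change of the 9 tested genes in the 3 comparisons, with 95% intervals from edgeR. Filled red points passed adjusted p under 0.05, and the dotted line separates contractile from basal genes. Acta2, Myh11 and Cnn1 lie near -0.8 in the first panel, near 0 in the second and near 0.7 in the third, and the intervals of Actg2 and Tagln are the widest.

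In the test of the 3 ages together Acta2 was called with adjusted p = 0.00166, Myh11 with 0.00747 and Cnn1 with 0.00944, while 17.0% of all genes were called (edgeR). At 12 against 2 months the fall of these 3 genes had the same sign under library totals alone, by 0.43, 0.44 and 0.55 on the log2 scale with adjusted p of 0.0224 to 0.0292 (edgeR). Those of Krt5 and Krt14 shrank to -0.09 and -0.11, and Mylk turned to 0.12, none of them called. The ages did not overlap, with 12 months lower, in 5 of the 9 tested genes (Acta2, Myh11, Cnn1, Krt5 and Krt14) and in 12.4% of all genes. The 24-month libraries all lay above the 12-month ones in 4 of the 9 (Acta2, Myh11, Cnn1 and Mylk) and in 12.1% of all genes.

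The median log2 fold change of the 6 contractile genes was -0.75, -0.06 and 0.67 in 12 against 2, 24 against 2 and 24 against 12 months, and that of the 3 basal genes -0.40, 0.05 and 0.30. Over all tested genes the medians were 0.01, 0.01 and -0.02. The difference between the contractile and the basal genes was described within libraries and not tested. The mean log2 CPM of the 6 contractile genes minus that of the 3 basal genes averaged -0.58 at 2 months (SD 0.15), -1.13 at 12 months (SD 0.71) and -0.68 at 24 months (SD 0.51, n = 3 each). By library it was -0.66, -0.41 and -0.68 at 2 months, -1.93, -0.89 and -0.58 at 12 months, then -0.23, -0.58 and -1.24 at 24 months. Library 1 at 12 months, with 1 count of Tagln and 2 of Actg2, was the lowest, and without it the 12-month mean was -0.73. Without library 3 at 24 months the 24-month mean was -0.41. With the sparsely counted Tagln and Actg2 left out, a choice made after seeing the data, the mean difference was 1.58, 1.22 and 1.48. By library it was then 1.488, 1.747 and 1.505 at 2 months and 1.072, 1.21 and 1.374 at 12 months. At 24 months it was 2.045, 1.483 and 0.902, on both sides of all other libraries.

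Ratios of single gene pairs do not depend on scaling. The ratio of Acta2 to Krt5 counts was 4.32, 4.57 and 3.41 at 2 months, 3.04, 3.29 and 3.25 at 12 months, then 6.14, 3.41 and 2.72 at 24 months. The 12-month ratios lay below the 2-month ones by a small margin, and the 24-month ratios ran on both sides of all others. The gap was wider for Acta2 to Krt14, at 3.96, 4.15 and 3.97 at 2 months and 3.09, 3.31 and 3.26 at 12 months, with 5.98, 3.78 and 3.29 at 24 months. By contrast, Acta2 to Myh11 kept to 2.37 to 2.85 and Krt5 to Krt14 to 0.908 to 1.21 over all 9 libraries. Counts were also set against Epcam, an epithelial gene whose level in myoepithelial cells and in other epithelial cells these data do not separate. The Acta2 count was 0.730, 0.845 and 0.830 per Epcam count at 2 months, 0.441, 0.440 and 0.451 at 12 months, then 0.821, 0.689 and 0.615 at 24 months. The 12-month ratios lay below all others here too. Krt14 per Epcam count was also lower at 12 than at 2 months, at 0.184, 0.204 and 0.209, then 0.143, 0.133 and 0.138, and ran over 0.137, 0.182 and 0.187 at 24 months, where library 1 overlapped with the 12-month ones. None of these ratios was tested.

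At 24 months some contractile genes and the basal genes differed between libraries in opposite senses. On the log2 scale library 1 lay above the mean of its age by 0.14 for Acta2, 0.26 for Myh11, 0.24 for Cnn1 and 0.58 for Actg2, and library 3 lay below it, at -0.06, -0.21, -0.39 and -0.70. For Acta2 library 2 was as low as library 3, at -0.08. Krt5 stood at -0.53 in library 1 and 0.43 in library 3, Krt14 at -0.37 and 0.29, and Trp63 at -0.34 and 0.56. The other contractile genes had the signs of the keratins, Tagln with -0.963 and 0.533 at 4 to 16 counts and Mylk with the small values of -0.025 and 0.075. For Acta2, Myh11, Cnn1, Krt5 and Krt14 the deviations ran from -0.23 to 0.27 at 2 months and from -0.11 to 0.15 at 12 months, against -0.53 to 0.43 at 24 months.

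**Figure D4:**
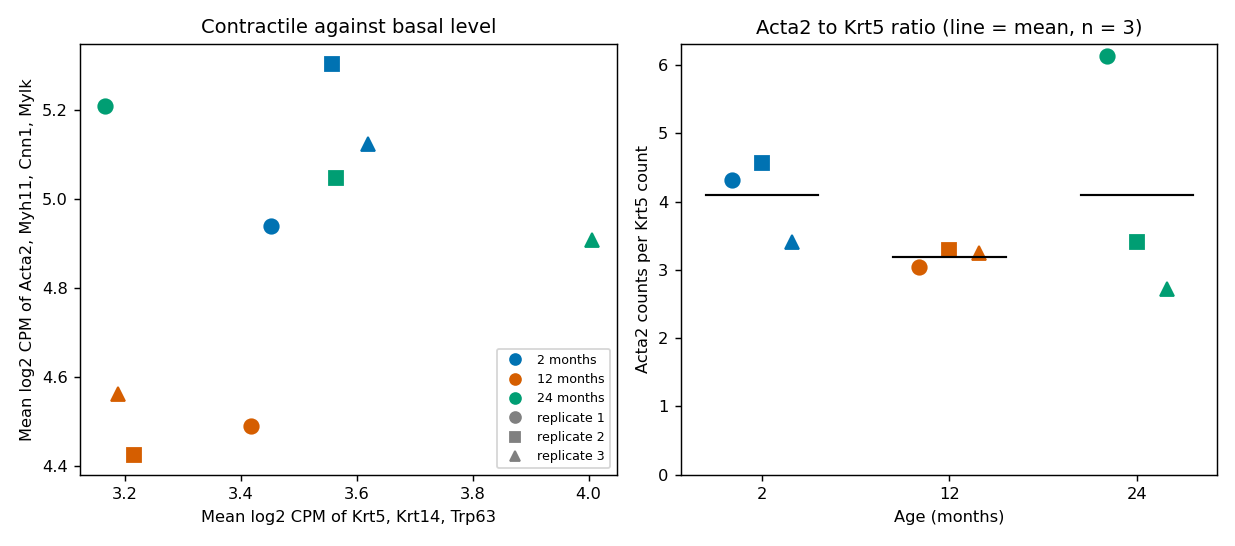
Left, mean log2 CPM of Acta2, Myh11, Cnn1 and Mylk against that of Krt5, Krt14 and Trp63 in each library; right, Acta2 counts per Krt5 count by age, with the mean as a line (n = 3). The 12-month libraries lie lowest on the contractile axis, and the 24-month libraries spread along the basal axis from replicate 1 to the left to replicate 3 to the right, with ratios from 6.14 to 2.72.

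Outside the 10 genes, those whose log2 CPM over the 9 libraries was most like that of Acta2, among 9929 tested genes averaging 2 CPM or more, were Gm14743, Tspan5, Vamp8, Cd320, Myl9, Spon2, Mllt1 and Glb1l2, with Pearson's r from 0.976 down to 0.947. Among the 10 genes r with Acta2 was 0.977 for Myh11, above all of these, 0.928 for Cnn1, 0.80 for Mylk, 0.636 for Actg2, 0.616 for Krt14, 0.478 for Krt5, 0.417 for Tagln and 0.015 for Trp63. For Krt5 the closest were Fat2, Serpinh1, Cebpb, Trim29, Crim1, Scarf2, Bms1 and Ciao1, with r from 0.945 to 0.88, while Krt14 among the 10 stood at 0.919. Of the 6 duct and luminal genes, r with Krt5 was 0.857 for Krt7, 0.855 for Krt19 and 0.716 for Krt8. It was 0.422 for Cdh1, 0.193 for Epcam and 0.09 for Krt18. None of the 8 genes nearest Acta2 was among the 8 nearest Krt5, but such short lists out of 9929 candidates cannot show whether the sets differ. These values describe 9 libraries that share ages, depth and mixed-in tissues.

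The rest of the contractile apparatus was mixed. Of 18 tested genes, 3 fell and 2 rose from 2 to 12 months, with a median log2 fold change of -0.17, while 2.52% of all genes fell and 5.41% rose. Cald1, the actin-binding caldesmon, had CPM of 93.2, 82.7 and 89.0 at 2 months, 46.8, 42.7 and 49.7 at 12 months, then 71.1, 91.0 and 76.1 at 24 months, so that its 12-month libraries stood apart like those of Acta2. It fell by 0.93 on the log2 scale and then rose by 0.77 (adjusted p = 0.00077 and 0.00241, edgeR).

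Myl9, the regulatory light chain that Mylk phosphorylates, had CPM of 23.4, 30.2 and 26.2 at 2 months, 15.7, 14.6 and 18.1 at 12 months, then 23.2, 22.4 and 21.8 at 24 months. It fell by 0.72 and rose by 0.48 on the log2 scale (adjusted p = 0.0031 and 0.0318, edgeR). The 12-month libraries again lay below all others. Without the salivary-rich libraries the fall was lost (adjusted p = 0.101), and the rise was lost without library 3 at 2 months, library 1 or 2 at 12 months, or any library at 24 months (adjusted p 0.0548 to 0.115, edgeR).

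Tpm1, a tropomyosin that lies along the actin filament, fell by 0.41 from 2 to 12 months (adjusted p = 0.0316, edgeR). It was at -0.10 with library totals alone, and the call was lost without library 2 or 3 at 2 months (adjusted p = 0.123 and 0.074) or library 1 or 2 at 12 months (0.102 and 0.153, edgeR).

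The genes that rose at 12 months were Smtn, the gene of smoothelin, by 0.82 (adjusted p = 0.0158), and Des, the gene of the muscle intermediate filament desmin, by 1.89 (adjusted p = 0.0021, edgeR). Des was counted 31, 43 and 33 times at 2 months, 145, 155 and 199 times at 12 months, then 77, 121 and 138 times at 24 months. Desmin is also made by skeletal muscle, and the muscle-rich libraries were 1 and 3 at 12 months. Their part in the Des values was not tested. At 24 against 2 months 3 of the 18 were higher and none lower, against 9.82% and 7.56% of all genes: Smtn by 0.69 (adjusted p = 0.0203), Des by 1.35 (0.00654) and Csrp1, an actin-associated LIM protein, by 0.33 (0.0334, edgeR). From 12 to 24 months 4 of the 18 rose and none fell, against 2.79% and 1.60% of all genes: Cald1, Myl9, Csrp1 by 0.44 (adjusted p = 0.0218) and Lmod1, the gene of leiomodin, by 0.70 (0.0418, edgeR). The rise of Cald1 was lost without the salivary-rich libraries (adjusted p = 0.0841, edgeR). Those of Csrp1 and Lmod1 were lost without any 1 of the 12-month libraries, library 1 or 3 at 24 months and, for Lmod1, also library 2 at 24 months or library 3 at 2 months (adjusted p 0.0513 to 0.134, edgeR). The 2-to-24-month value of Csrp1 was lost without library 2 or 3 at 2 months or any 24-month library (adjusted p 0.0526 to 0.118), and that of Smtn without library 2 or 3 at 2 months or library 1 at 24 months (0.0634 to 0.0813, edgeR). The rise of Smtn at 12 months was lost without library 2 (adjusted p = 0.0701) or library 3 (0.0676) at 2 months, and Des was lost at 12 and at 24 months without the salivary-rich libraries (0.0549 and 0.0959, edgeR).

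**Figure D5:**
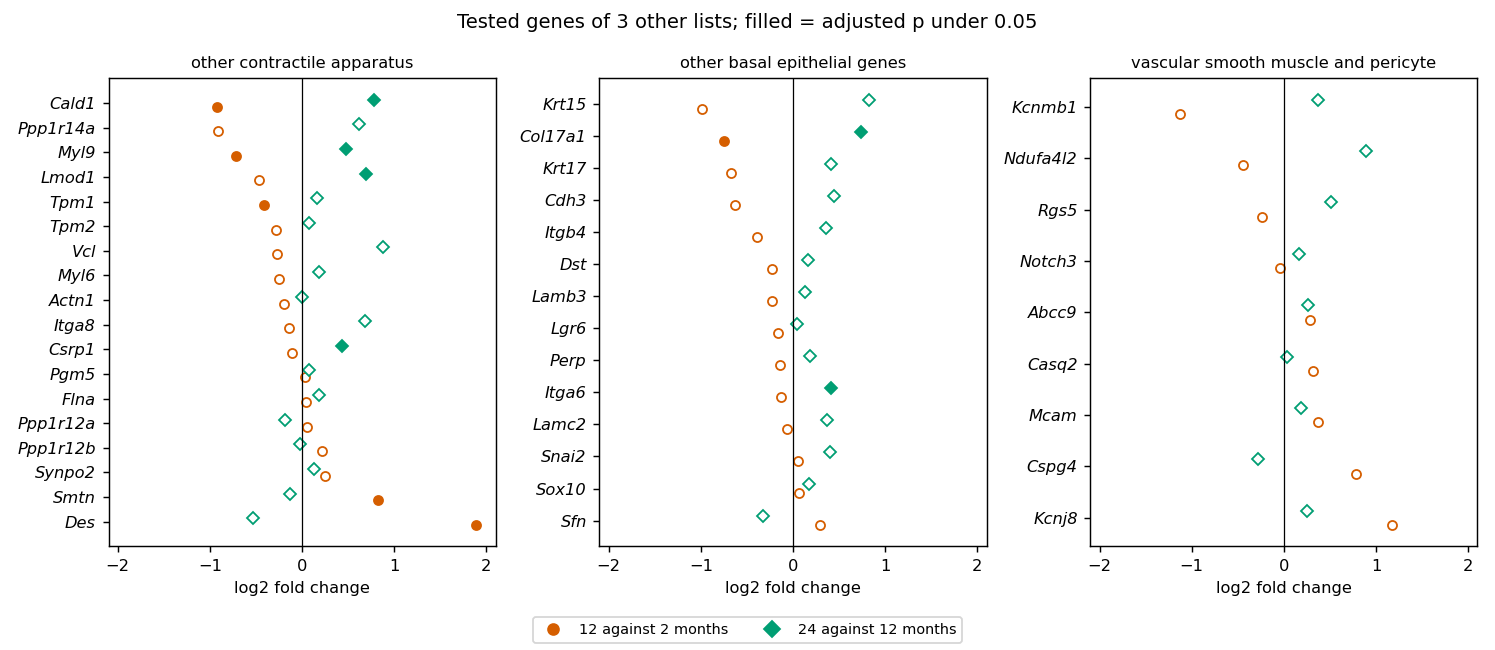
Log2 fold change in 12 against 2 months (circles) and 24 against 12 months (diamonds) for the tested genes of 3 other lists, ordered by the first; filled symbols passed adjusted p under 0.05 (edgeR). Cald1 and Myl9 lie on the left in the first comparison and on the right in the second, Des and Smtn lie on the right in the first, and no gene of the vascular list is filled.

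Of the 10 tested genes of the SRF and RhoA pathway, which drives contractile gene transcription, none was called by edgeR in any comparison. At an unadjusted edgeR p under 0.05 there were 2 higher and 1 lower at 12 against 2 months, 1 higher at 24 against 2 months, and 1 higher and 1 lower at 24 against 12 months. Of all tested genes 13.0% were higher and 10.2% lower by that rule in the first comparison, 17.1% higher in the second, and 9.96% higher and 8.93% lower in the third. DESeq2 called 1, Mrtfa at 24 against 2 months, and limma voom none. Srf, the gene of serum response factor, was at -0.24 in 12 against 2 months (adjusted p = 0.18) and Mrtfa, a cofactor of that factor, at 0.50 (adjusted p = 0.101, edgeR). Myocd, the smooth muscle cofactor myocardin, had 0 to 5 counts per library. Of 13 contraction receptor and Gq signalling genes, none was called between 2 and 12 or between 12 and 24 months by edgeR, DESeq2 or limma voom, with 3 and 1 at an unadjusted edgeR p under 0.05. From 2 to 24 months 3 of the 13 rose by edgeR and by DESeq2 and 1 by limma voom, while 9.82% of all genes rose by edgeR: Chrm3, the muscarinic receptor through which acetylcholine acts on the gland, by 0.45 (adjusted p = 0.00839), Ednrb by 1.83 (0.0345) and Plcb1 by 1.46 (0.0388, edgeR). The counts of Ednrb were 3 to 11 at 2 months and 23 to 34 at 24 months. Chrm3 was lost without the salivary-rich libraries (adjusted p = 0.102, edgeR). Ednrb was lost without library 2 or 3 at 2 months or any 24-month library (adjusted p 0.0561 to 0.118), and Plcb1 without library 1 or 2 at 2 months, library 2 at 12 months, or library 1 or 2 at 24 months (0.0501 to 0.18, edgeR).

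Among 14 other basal epithelial genes 1 fell from 2 to 12 months and 2 rose from 12 to 24 months, against 2.52% and 2.79% of all genes. Col17a1, a collagen of the hemidesmosome, fell by 0.75 at 12 months (adjusted p = 0.0304) and rose by 0.74 at 24 months (0.045, edgeR). Its CPM were 9.29, 6.40 and 8.15 at 2 months, 5.01, 4.25 and 4.91 at 12 months, then 7.02, 6.65 and 9.99 at 24 months, which left the 12-month libraries below all others. Itga6, the laminin-binding integrin of basal cells, rose by 0.41 from 12 to 24 months (adjusted p = 0.0414, edgeR). The medians of the list were -0.19 and 0.36. The fall of Col17a1 was lost without library 1 or 3 at 2 months or library 1 or 2 at 12 months (adjusted p 0.068 to 0.137), and its rise without library 3 at 2 months, any 12-month library, or library 1 or 3 at 24 months (0.0516 to 0.149, edgeR). The rise of Itga6 was lost without library 3 at 2 months, any 12-month library, or library 2 or 3 at 24 months (adjusted p 0.0623 to 0.141, edgeR). At 24 against 2 months none of the 14 was called by edgeR, DESeq2 or limma voom, with 1 at an unadjusted edgeR p under 0.05. Of all genes 17.1% were higher and 14.5% lower by that rule. Krt17 was at -0.67 (adjusted p = 0.0649) and Krt15 at -0.99 (adjusted p = 0.477) in 12 against 2 months (edgeR). In that comparison DESeq2 called 2 of the 14 lower, Col17a1 and Krt17, and limma voom called 1. At 24 against 12 months DESeq2 called 2 higher and limma voom 1.

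The contractile apparatus, SRF and RhoA, receptor and other basal lists held 18 calls in the 3 comparisons. Without the salivary-rich libraries 1 of them remained, the fall of Cald1, and the other 17 had adjusted p from 0.0549 to 0.326 (edgeR). Without the muscle-rich libraries 8 remained: both changes of Cald1, the fall of Myl9, Des in both comparisons with 2 months, and Smtn, Chrm3 and Plcb1 at 24 against 2 months. The other 10 then had adjusted p from 0.0535 to 0.507 (edgeR).

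Values of other cell types that share or accompany these transcripts are as follows. Of 12 vascular smooth muscle and pericyte genes 9 were tested and none was called by edgeR, DESeq2 or limma voom. At an unadjusted edgeR p under 0.05 there were 0, 1 and 2 in 12 against 2, 24 against 2 and 24 against 12 months, all of them higher, where 17.1% of all genes were higher in the second and 9.96% in the third. Their sum was 14.5 to 16.9 CPM at 2 months, 13.5 to 17.3 at 12 months and 16.9 to 21.9 at 24 months. Rgs5, a pericyte gene, had CPM of 5.53, 7.46 and 5.60 at 2 months, 4.52, 6.05 and 5.23 at 12 months, then 6.52, 7.66 and 8.28 at 24 months, with a log2 fold change of -0.23 in 12 against 2 (adjusted p = 0.46) and 0.51 in 24 against 12 months (adjusted p = 0.118, edgeR). Notch3, a receptor of vascular smooth muscle and pericytes, averaged 4.76, 4.63 and 5.17 CPM at the 3 ages (SD 0.596, 0.344 and 1.44, n = 3). Myocd, as above, and Pln, with 0 to 7 counts and 64.7% of its exon bases shared with the opposite strand, were near 0, while Smtn and Lmod1, which smooth muscle also makes, averaged 10.4 to 18.4 and 2.73 to 4.43 CPM.

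The summed endothelial CPM were 25.3 to 32.4, 22.2 to 29.6 and 29.5 to 34.9 at the 3 ages. Of the 6 endothelial genes edgeR called 1 lower at 12 against 2 months and 1 higher at 24 against 12 months. Of all genes 2.52% and 2.79% were called so. Both calls were of Vwf, which fell by 0.82 and rose by 0.76 (adjusted p = 0.0173 and 0.0351, edgeR). The fall was lost without library 2 at 2 months or at 12 months (0.0829 and 0.0654, edgeR). The rise was lost without library 3 at 2 months, any 12-month library, or library 2 or 3 at 24 months (0.055 to 0.123, edgeR). In log2 fold change 5 of the 6 were below 0 in the first comparison and 5 above 0 in the second. Pecam1 went the other way, with means of 7.16, 10.2 and 8.69 CPM at the 3 ages. Leukocyte genes summed to 23.9 to 49.7 CPM at 2 months, 149 to 275 at 12 months and 156 to 231 at 24 months. By edgeR all 7 genes of that list rose from 2 to 12 months and 6 of 7 from 2 to 24 months. Of all genes 5.41% and 9.82% were called higher in these comparisons. Limma voom called 5 and 3 of the 7. The B cell genes were highest at 12 months by their means. Cd79a averaged 0.0927, 25.1 and 5.41 CPM at the 3 ages in order, Ms4a1 averaged 0.0358, 11.2 and 2.59 CPM, and they fell from 12 to 24 months by 2.21 and 2.11 on the log2 scale (adjusted p = 0.045 and 0.0434, edgeR). Both falls were lost without the salivary-rich libraries (0.399 and 0.419) and without any 1 library other than library 3 at 12 months (0.0626 to 0.178, edgeR). Ptprc, the common leukocyte antigen, averaged 2.03, 12.9 and 6.10 CPM. Over the 9 libraries r with Acta2 ran from -0.783 to -0.458 over the 7 leukocyte genes. It was -0.783 for Ptprc, -0.719 for Ms4a1 and -0.705 for Cd79a. Values of like size occurred in other lists. They ran from -0.562 to 0.857 over the 6 endothelial genes and from -0.781 to -0.254 over the 4 tested skeletal muscle genes. These values describe libraries that share ages and mixed-in tissues. Of 7 adipocyte genes edgeR called 6 higher at 12 and at 24 against 2 months, and limma voom called 1 in each. By edgeR 5.41% and 9.82% of all genes were called higher there. Skeletal muscle genes summed to 1.05 to 1.64, 2.72 to 69.5 and 2.06 to 2.44 CPM. At 12 months they summed to 34.4, 2.72 and 69.5 CPM in libraries 1, 2 and 3, beside Acta2 at 48.2, 48.1 and 52.7 CPM. Fibroblast genes summed to 78.9 to 141, 87.5 to 101.5 and 133 to 212 CPM at the 3 ages. Of these 6 genes edgeR called none at 12 against 2 months. It called 3 higher at 24 against 2 months and 2 higher at 24 against 12 months. Of all genes 9.82% and 2.79% were called higher there. DESeq2 called 1 lower, 3 higher and 4 higher in the 3 comparisons, and limma voom 0, 1 and 1. The part of vascular cells, endothelium, leukocytes, adipocytes, skeletal muscle and fibroblasts in the contractile values was not tested.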

How the data were processed

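Total RNA, extracted with an RNeasy Plus Micro kit, was sequenced as paired reads of 100 bases on a BGISEQ500RS, per the labels' protocols. The submitters' processing notes name cutadapt, FastQC, STAR, HTSeq and DESeq2 with GRCm38. The sources used here give no annotation release, strand setting or read filters. The authors deposited whole-number counts per gene, used for every test, and log2 values, used only for a check: 100% equalled log2(count / size factor + 1) within 1e-06.

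Of 54232 genes, 153 had no symbol in GENCODE M21 and held at most 0.0132% of a library's counts. One model of the 3 ages over all 9 libraries was fitted with edgeR 4.0.16 (quasi-likelihood test after TMM scaling; filterByExpr, minimum count 10) in R 4.3.3. It kept 14944 genes and at least 99.93% of each library's counts, with 6 residual degrees of freedom. Calls are Benjamini-Hochberg adjusted p-values under 0.05. CPM are TMM-scaled. Log2 CPM used a prior count of 0.5, and TPM used union exon lengths. At this depth genes of a few counts per library have wide intervals. The fitting script was tested on simulated data.

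Members and lists were chosen with earlier results of these data known. Named genes were all members, up to 4 called genes of each of 14 lists (139 genes) per comparison with the smallest p, 18 fixed genes, and the 8 genes most correlated with Acta2 and with Krt5. Of these, the text gives those bearing on the members. Genes named beside a count of 5 or fewer outside this rule (Mrtfa, Pcsk7, Gm48529, Epcam, Notch3) were chosen after their values were seen. The 6 duct and luminal genes, named as a whole list, were also added after their values were seen.

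Alternatives were RLE scaling, library totals alone, 2 other filters, DESeq2 1.42.0, limma 3.58.1 voom with sample weights, a replicate block, fits of the compared libraries alone, leaving out each library in turn, the muscle-rich or salivary-rich libraries left out, no antigen receptor genes, and longest-transcript lengths. Sharing of exons, promoters and figures used Python 3.11.15, numpy 2.4.6, pandas 2.3.3 and matplotlib 3.10.9.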

Additional observations from a re-analysis of the deposited data

How the results depend on the processing

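Of 3915 alternative values of 198 gene results, 3553 kept their side of the threshold, 312 lost a call, 50 gained one and none reversed a call. The count of members called lower at 12 against 2 months (3) became 5 with no filter on low counts, 1 without the muscle-rich libraries and 0 without the salivary-rich ones. With single libraries left out it was 3 to 4. Members called higher at 24 against 12 months (3) became 0 without the muscle-rich and 0 without the salivary-rich libraries, and 1 to 4 with single libraries left out, the 1 without library 1 or library 2 at 12 months. At 24 against 2 months library totals alone gave 1 higher, against 0. For the 3 ages together (3) the counts were 5 with no filter, 1 without the muscle-rich libraries, 0 without the salivary-rich ones and 3 to 5 with single libraries left out, the 5 without library 1 at 24 months. Leaving out libraries also leaves fewer to test, and the cause of the lost calls was not tested. With the longest transcript as length, Mylk had a mean of 4.09 TPM. The contractile minus basal difference without Tagln and Actg2 had means of 1.58, 1.22 and 1.48 at 2, 12 and 24 months, with the 24-month libraries overlapping both other ages. Library totals alone moved the split of all called genes to 1614 higher and 80 lower at 12 against 2 months, from 808 and 377, to 2626 and 191 at 24 against 2 months, from 1467 and 1130, and to 202 and 138 at 24 against 12 months, from 417 and 239. Over all genes in 12 against 2, 24 against 2 and 24 against 12 months, DESeq2 called 1821, 3123 and 1235, no filter gave 2026, 3148 and 1486, the fit without the salivary-rich libraries 127, 626 and 170 and that without the muscle-rich ones 746, 2243 and 132. The replicate numbers were not taken as pairs because the titles name no shared animal or batch. Of 9 same-number pairs of libraries, none had deviations correlated above 0.1 (-0.142 to 0.073). Pairs of unlike number ran from -0.186 to 0.225. With 3 libraries per age these values cannot exclude a shared batch. With the replicate block 3 members were called lower at 12 against 2 months, 2 higher at 24 against 12 months (Cnn1 was lost, adjusted p = 0.0824 by edgeR) and 3 over the 3 ages. Oxtr, Tagln and Actg2 are limited by their depth.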
